A study of Homo sapiens with 96 samples.

Results

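SOX2, SOX4, SOX5 and SOX9 encode transcription factors of the SOX family, and their mRNAs were 4 of the 44659 genes in a count table of A375 cells, a BRAF-mutant human melanoma line. The 4 genes were taken from the table by symbol, and all 4 passed the filter on low counts, as did 14948 genes in all. The genes and tests were chosen with earlier results of these data known, so shares of called members are not those of an independent set. SOX2 was selected on its larger cycloheximide effect under triptolide in MAPKi cells at 3 and 5 h, a log2 difference between pretreatments of 2.04 with a standard error (SE) of 0.46. For this reason the SOX2 values at 3 and 5 h with triptolide are given as a description with no test, and tests of SOX2 are confined to libraries that this choice did not use.

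SOX proteins bind the minor groove of DNA through a shared domain of the high mobility group type and bend it, usually next to a partner factor. SOX2 belongs to the SoxB group and maintains stem and neural progenitor cells, SOX4 is a SoxC factor of progenitors and of many tumors, SOX5 is a SoxD factor that has no transactivation domain of its own, and SOX9 is a SoxE factor that specifies cartilage and is, like its relative SOX10, expressed in cells of neural crest origin. In the melanocyte lineage SOX10 activates MITF, the regulator of pigment cell genes, and SOX5 is known to oppose SOX10 there.

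The cells had been kept for 18 h in DMSO or in MAPKi, that is 500 nM vemurafenib, which inhibits mutant BRAF, plus 500 nM cobimetinib, which inhibits MEK. Each pretreatment then had 4 arms, which were vehicle, cycloheximide alone (CHX, 100 µg/ml, a block of translation elongation), triptolide alone (T, 25 µM, a block of transcription) and triptolide after a 5 min lead of cycloheximide (TCHX), and each arm was harvested at 0, 1, 3 and 5 h. Cytoplasmic RNA was sequenced from its 3′ end in 3 libraries for each of the 32 groups, 96 in all, with 2381351 to 12520154 counted reads per library and a median of 7143396. The labels number these libraries 1 to 3 but do not say that they came from separate cultures, so the p-values measure the spread between libraries, which may be technical. The labelled cell type was checked on marker genes in the vehicle arm, in CPM, which are read counts scaled to equal library size. The summed level of 12 melanocytic markers was 829.6 to 1251 CPM in DMSO and 2579 to 4312 CPM in MAPKi, whereas 8 markers of keratinocytes, fibroblasts, endothelium and blood summed to 3.13 to 10.5 CPM over both, with KRT5, DCN and PECAM1 at 0 in the vehicle arm. Of the 10 melanocytic markers tested, 9 were called higher in MAPKi. DCT alone averaged 49.97 CPM in DMSO and 1949 CPM in MAPKi, and so made up much of the higher sum. S100B was lower in MAPKi, at 223.1 CPM against 303.2 CPM in DMSO. Other pigment genes were low. In DMSO and MAPKi, PMEL averaged 1.29 and 15.0 CPM, TYRP1 0.243 and 2.06 CPM, and MLANA 0.177 and 0.941 CPM. TYR averaged 0.254 CPM in DMSO and 0.266 CPM in MAPKi, and GPR143 was at 0 in the vehicle arm.

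The loci differ in structure. SOX2 lies at chr3:181711925-181714436 on the plus strand of GRCh38, as 1 exon inside the long noncoding gene SOX2-OT with no shared exon. SOX4 lies at chr6:21593751-21598619 on the plus strand, also as 1 exon, and its exon overlaps an unnamed antisense gene in part. SOX5 lies at chr12:23529504-24562544 on the minus strand with 15 exons in its MANE Select transcript, and SOX9 at chr17:72121020-72126416 on the plus strand with 3 exons, within the span of SOX9-AS1 and sharing no exon with it. The strand setting of the counting was not given in the sources used here, so reads of overlapping antisense genes cannot be told apart from those of SOX4.

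Because SOX2 and SOX4 moved together across the groups, the 250 bases before their start sites are shown from RefSeq (build GRCh38.p14, plus strand), with capitals marking the letters CCAAT (the CCAAT box) and ACAANG (a SOX core) on either strand. Of the 4 genes 3 had an entry there, and SOX9 had none. The SOX2 sequence is chr3:181711675-181711924 and the SOX4 sequence is chr6:21593501-21593750.
SOX2: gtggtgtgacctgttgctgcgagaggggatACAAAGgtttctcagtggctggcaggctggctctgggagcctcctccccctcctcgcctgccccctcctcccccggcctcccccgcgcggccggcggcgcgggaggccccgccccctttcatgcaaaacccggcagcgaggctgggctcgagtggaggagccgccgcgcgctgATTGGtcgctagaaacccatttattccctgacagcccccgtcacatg
SOX4: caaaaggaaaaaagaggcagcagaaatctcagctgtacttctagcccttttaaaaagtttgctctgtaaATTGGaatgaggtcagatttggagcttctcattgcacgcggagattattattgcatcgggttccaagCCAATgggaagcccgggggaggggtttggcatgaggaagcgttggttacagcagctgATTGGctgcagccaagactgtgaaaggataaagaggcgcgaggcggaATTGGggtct
SOX2 held 1 CCAAT match, 47 bases before the start, and 1 SOX core match at 220 bases. SOX4 held 4 CCAAT matches, at 181, 114, 57 and 10 bases before the start. Of 35116 promoters of this length, 11240 held at least 1 CCAAT match, 0.874% held 4 or more and 30.9% held a SOX core match. The other motifs searched on both strands were TATAAA (10.7% of promoters), CCGGAA (14.5%), TGANTCA (6.57%) and TTTCGCG (1.1%), and none of these letters were in the SOX2 or SOX4 window. The searched motifs did not overlap each other in these windows.

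All 4 mRNAs carry the pentamer ATTTA, the core of AU-rich elements, in the 3′ untranslated region, where such elements are known to bind decay factors. SOX2 had 5 matches in 1122 bases, SOX4 had 4 in 2660, SOX5 had 17 in 4715 and SOX9 had 8 in 2029, against a median of 2 matches and of 1374 bases among 11885 expressed protein-coding genes. Per kilobase this was 4.46 matches in SOX2, 1.504 in SOX4, 3.61 in SOX5 and 3.94 in SOX9, against a median of 1.79, so that SOX4 lay below the median gene and the other 3 above it. For each gene the window of 30 bases with the most matches, and among those the most A and T, is shown 5′ to 3′, with ATTTA in capitals.
SOX2: taatatttctgtaaATTTAttgtgatattt
SOX4: agttttaacttttaattttttatATTTAaa
SOX5: ttgaaATTTAataaaataataagtaattat
SOX9: ttttttttttATTTAaaaaaagatatatta
These windows lie at chr3:181714211-181714240 on the plus strand, chr6:21597593-21597622 on the plus strand, chr12:23529777-23529806 on the minus strand and chr17:72126087-72126116 on the plus strand of GRCh38. The coding sequences separated SOX5 from the others. Codons that end in A or T made up 9.78% of SOX2 codons, 9.28% of SOX4 codons and 7.47% of SOX9 codons, against 50.3% in SOX5 and a median of 42.0% over expressed genes. Aspartate and glutamate codons (GAA, GAG, GAT and GAC pooled) made up 6.63% of SOX2 codons, 9.92% of SOX4, 10.4% of SOX9 and 12.6% of SOX5, against a median of 11.9%. The study examined these codons singly and reported GAA and GAT, but not GAG and GAC, as enriched in mRNAs lowered by MAPKi. Lysine and asparagine codons, which it also examined, made up 10.1% of SOX2 codons, 8.86% of SOX4, 8.055% of SOX9 and 10.5% of SOX5. These are descriptions of the sequences, with no test against the measurements.

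Without cycloheximide or triptolide, MAPKi raised SOX2 and SOX4 by 9.80-fold and 10.7-fold, lowered SOX9 and lowered SOX5 slightly. All 4 members were called at an adjusted p under 0.05 by edgeR's quasi-likelihood test over 14948 genes, where 69.1% of all genes were called, so the call itself is near the common outcome. SOX2 ranged from 3.58 to 7.43 CPM in the 12 DMSO libraries (median 4.89) and from 19.2 to 96.7 CPM in the 12 MAPKi libraries (median 55.1). The lowest MAPKi library was above every DMSO library, and the log2 difference was 3.29 (SE 0.13, adjusted p = 8.69e-37). SOX4 ranged from 62.9 to 92.9 CPM in DMSO (median 77.4) and from 719.3 to 960.6 CPM in MAPKi (median 838.8), again with no overlap. Its log2 difference was 3.42 (SE 0.06, adjusted p = 4.92e-62).

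SOX9, the cartilage and neural crest factor, went the other way. It ranged from 384.5 to 638.3 CPM in DMSO (median 524.4) and from 87.3 to 225.7 CPM in MAPKi (median 152.1). Every MAPKi library was below every DMSO library, and the log2 difference was −1.78 (SE 0.06, adjusted p = 1.26e-43), a 3.44-fold lower level. SOX5 ranged from 39.5 to 74.6 CPM in DMSO (median 62.9) and from 39.3 to 55.9 CPM in MAPKi (median 46.2), so the groups overlapped. Its log2 difference was −0.33 (SE 0.07, adjusted p = 1.04e-05). The SOX5 difference depended on the harvest time, because its DMSO level fell from 70.3 CPM ± 3.47 at 0 h to 45.3 ± 5.13 at 5 h, where the MAPKi level was 45.8 ± 3.38 (SD, n = 3 each). In bulk RNA, fewer cells with a transcript and less transcript per cell cannot be told apart.

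**Figure D1:**
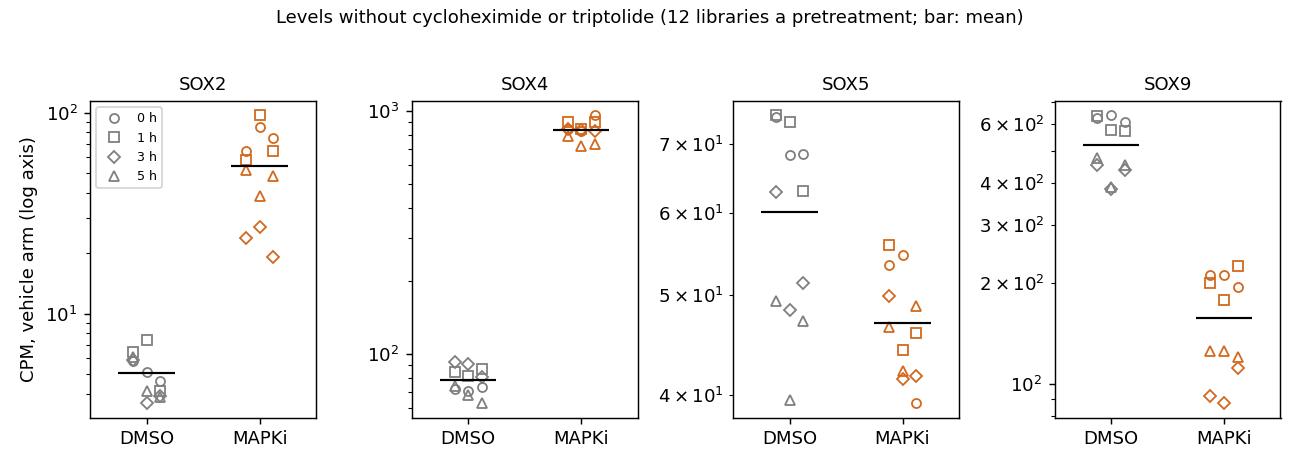
Level of each SOX mRNA in the vehicle arm, in CPM on a log axis, for the 12 DMSO and 12 MAPKi libraries, with a symbol for each harvest time and a bar at the mean of each pretreatment. SOX2 and SOX4 were higher and SOX9 lower in all MAPKi libraries, SOX5 overlapped, and the 3 h MAPKi libraries (diamonds) were the lowest for SOX2.

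Among the other SOX genes of the family list, 5 of 15 passed the filter and all 5 were called, 4 higher and 1 lower, where 69.1% of all genes were called. SOX6, a SoxD relative of SOX5, rose by a log2 difference of 0.72 (SE 0.05, adjusted p = 1.90e-24), and the SoxE relative of SOX9, SOX10, rose by 0.76 (SE 0.06, adjusted p = 1.14e-19). SOX8, the remaining SoxE factor, fell by 1.23 (SE 0.17, adjusted p = 9.68e-10), whereas SOX12 and SOX13 rose by 0.75 and 0.57. The 10 that did not pass were near the floor of detection: SOX1, SOX3, SOX14 and SOX17 were listed at 0 in all 96 libraries, and the highest count of any of the others in a library was 10. Of the noncoding neighbours, CASC15 begins 65564 bases past the end of SOX4, at chr6:21664184-22654455, and averaged 0.734 CPM ± 0.581 in DMSO and 24.4 ± 4.06 in MAPKi (SD, n = 12). This was a log2 difference of 5.05 (SE 0.23, adjusted p = 1.07e-33), in the direction of SOX4. SOX9-AS1 rose by 2.15 (SE 0.43, adjusted p = 8.78e-06) while SOX9 fell, at 0.371 CPM in DMSO and 1.37 CPM in MAPKi. SOX2-OT was low, at 0.584 CPM in DMSO and 0.274 CPM in MAPKi, and its log2 difference was −1.39 (SE 0.56, adjusted p = 0.0236), against the direction of SOX2. The other 3 noncoding neighbours in the table did not pass the filter.

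Of the factors known to act with SOX proteins, 6 of 10 were tested, 1 rose and 4 fell. Over all genes 69.1% were called in this comparison, 5406 higher and 4922 lower, so that a called gene in any of the lists here is the common outcome. POU3F2 (BRN2), a POU factor that binds beside SOX2 in neural cells, averaged 114.6 CPM ± 18.8 in DMSO and 6.32 ± 2.49 in MAPKi (SD, n = 12), a log2 difference of −4.22 (SE 0.12, adjusted p = 1.95e-46). POU5F1 was listed at 0 in all libraries and NANOG reached 1 read at most, so neither of these pluripotency partners of SOX2 was detectable at this depth. KLF4 and LIN28B of the same list were tested, at 2.62 and 6.33 CPM in DMSO and at 0.535 and 2.22 CPM in MAPKi. Of 16 genes listed as SOX2 or SOX9 targets, 10 were tested, 5 rose and 4 fell, with a list median of 0.21 against 0.06 over all genes. The cartilage genes did not follow SOX9 as a group: ACAN (aggrecan) and COL11A1 rose by log2 differences of 2.80 and 3.57, whereas HAPLN1 fell by 2.85, and COL2A1, at 0.409 CPM in DMSO, fell by 2.05 (adjusted p = 0.0352). Of the melanocytic markers, which include SOX10 and PAX3, 9 of 10 tested rose, led by DCT (5.29). Of the markers of the undifferentiated melanoma state 3 of 10 rose and 6 fell, with NGFR the largest rise (5.23). In the same list FOSL1 averaged 108.3 CPM in DMSO and 19.9 in MAPKi, and ZEB1 60.7 and 8.93 CPM. Of 5 tested markers of other cell types, KRT14 was called higher, at a mean of 1.59 CPM in MAPKi, and PDGFRA lower. The part of these changes in the SOX levels was not tested.

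In MAPKi cells the vehicle level of SOX2 and SOX9 also varied with harvest time. For levels that are compared with triptolide arms, counts were divided by size factors from genes stable under triptolide and are called normalized counts. SOX2 was at 474.9, 629.2 and 534.8 normalized counts in the 3 MAPKi vehicle libraries at 0 h, at 179.4, 180.2 and 135.1 at 3 h, and at 413.8, 283.6 and 368.0 at 5 h. The 3 h libraries were below all those of 0 and 5 h, at 30.2% ± 4.7 of the 0 h mean, and at 5 h the level was 65.0% ± 12.1 (SD, n = 3). SOX9 in MAPKi vehicle was at 45.5% ± 6.8 at 3 h and 62.4% ± 3.2 at 5 h, and in DMSO vehicle at 65.3% ± 6.3 and 71.5% ± 9.4. SOX4 in MAPKi vehicle stayed between 88.7% ± 8.2 and 93.7% ± 6.0 from 1 to 5 h. The SOX2 ratio of MAPKi to DMSO in CPM was 14.3 at 0 h, 12.2 at 1 h, 5.25 at 3 h and 9.86 at 5 h. These time differences are given as levels and were not tested. Each harvest time was its own batch per the labels, so the time and the batch cannot be told apart.

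Relative to vehicle at the same times, cycloheximide alone gave higher levels of 3 of the 4 SOX mRNAs in DMSO and all 4 in MAPKi, averaged over 1, 3 and 5 h. In DMSO 25.8% of all genes were called. SOX2 rose by a log2 difference of 0.69 (SE 0.17, adjusted p = 0.00100), SOX4 by 0.45 (SE 0.06, adjusted p = 2.77e-08) and SOX9 by 0.60 (SE 0.06, adjusted p = 4.53e-13) over vehicle, while SOX5 was at −0.16 (SE 0.08, adjusted p = 0.119). Without replicate 3 the SOX2 difference in DMSO was 0.53 with an adjusted p of 0.0802. In MAPKi 25.8% of all genes were called as well, and SOX9 had the largest rise of the 4, at 1.24 (SE 0.06, adjusted p = 1.38e-27). SOX2 rose there by 0.98 (SE 0.12, adjusted p = 6.51e-10) and SOX4 by 0.32 (SE 0.06, adjusted p = 1.51e-05). SOX5 rose by 0.23 (SE 0.08, adjusted p = 0.0166), which was 0.20 with an adjusted p of 0.164 without replicate 2.

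By time, the ratio of cycloheximide to vehicle, which takes the vehicle level as its denominator, was largest at 3 h for SOX2 and SOX9 in MAPKi and at 5 h for SOX4 and SOX9 in DMSO. At 1 h in MAPKi SOX2 was at 80.2 CPM ± 11.1 with cycloheximide and 73.0 ± 20.7 with vehicle (SD, n = 3), and the libraries overlapped. At 3 h it was at 87.9 ± 14.8 against 23.3 ± 3.98, a ratio of 3.77, and at 5 h at 84.5 ± 14.4 against 46.4 ± 6.98, a ratio of 1.82, both without overlap. Its 0 h levels were 74.8 ± 12.6 with cycloheximide and 74.5 ± 10.5 with vehicle, so in CPM vehicle moved more than cycloheximide. SOX9 in MAPKi was already apart at 1 h, at 285.2 CPM ± 21.4 against 201.7 ± 23.6, and reached a ratio of 3.63 at 3 h and 2.59 at 5 h. In DMSO SOX9 began later, with 612.1 ± 26.1 against 596.7 ± 35.4 at 1 h and 753.8 ± 48.3 against 424.8 ± 35.5 at 3 h, a ratio of 1.77. At 5 h it was at 849.3 ± 29.2 against 439.6 ± 44.5, a ratio of 1.93. SOX4 in DMSO lay above vehicle without overlap at 1, 3 and 5 h, by ratios of 1.26, 1.27 and 1.58, and in MAPKi its ratios were 1.18 with overlap and 1.30 and 1.27 without. At 0 h, after the 5 min lead alone, the ratio of cycloheximide to vehicle lay between 0.919 and 1.07 for the 4 genes in both pretreatments.

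The cycloheximide effect without triptolide differed between pretreatments for 2 of the 4 members, against 6.92% of all genes. For SOX9, which rose in both, the rise was larger in MAPKi by a log2 difference of 0.64 (SE 0.09, adjusted p = 1.09e-07). For SOX5, which rose in MAPKi alone by the test, the difference between pretreatments was 0.39 (SE 0.11, adjusted p = 0.0127). The SOX5 difference was not called when replicate 1, 2 or 3 was left out, with adjusted p-values of 0.159, 0.0750 and 0.0620 at log2 differences of 0.38, 0.44 and 0.39. For SOX2 the difference was 0.28, with a 95% interval from −0.13 to 0.70 (adjusted p = 0.528), so that no difference in the response of SOX2 to cycloheximide was detectable without triptolide. For SOX4 it was −0.13, with an interval from −0.30 to 0.04 (adjusted p = 0.482). Of the 5 other SOX genes, SOX8 and SOX12 also differed between pretreatments. SOX8 was at −0.32 in DMSO (adjusted p = 0.211) and rose by 0.72 in MAPKi (adjusted p = 0.00332), a difference of 1.04 (SE 0.27, adjusted p = 0.00723). SOX12 fell by 0.52 in DMSO (SE 0.09, adjusted p = 1.16e-06) and was at −0.04 in MAPKi (adjusted p = 0.803), a difference of 0.48 (SE 0.12, adjusted p = 0.00383).

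**Figure D2:**
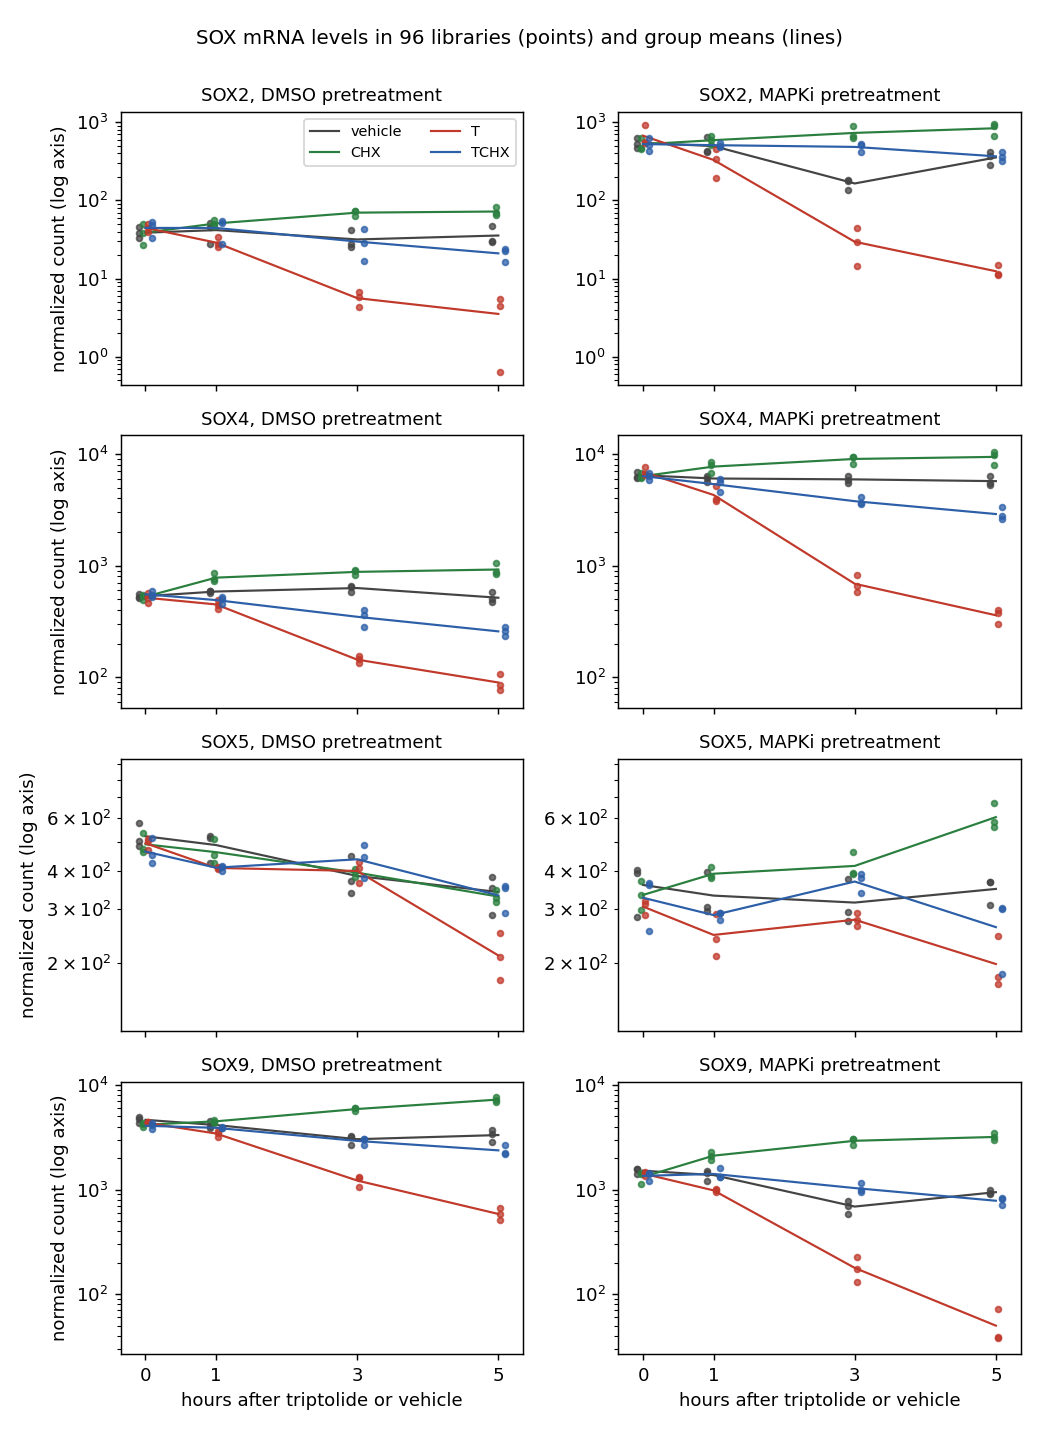
Normalized counts of the 4 SOX mRNAs on a log axis against hours after triptolide or vehicle, with DMSO cells on the left and MAPKi cells on the right. Points are libraries, 3 a group, and lines join group means of the vehicle, CHX, T and TCHX arms. With triptolide alone SOX4 and SOX9 fell steeply, more so in MAPKi, and TCHX lay above T at 3 and 5 h. SOX5 fell less, to 40.6% of its initial level in DMSO and 55.0% in MAPKi at 5 h. The SOX2 curves with triptolide at 3 and 5 h are a description and rest on few reads in DMSO.

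Triptolide stops new transcripts, so the level that is left was read as decay. It was compared with vehicle at 0 h, which is another batch per the labels. Decay can thus not be told apart from time and batch in these comparisons. At 1 h in DMSO edgeR called 0 of the 4 members, against 0.883% of all genes, although SOX4, SOX5 and SOX9 had an unadjusted p under 0.05 (3 of 4), and DESeq2 called 1, SOX9. SOX9 was at −0.43 relative to vehicle at 0 h (SE 0.12, adjusted p = 0.0528), and it was called with an adjusted p of 0.0154 when no filter on low counts was used. In MAPKi 3 of the 4 were called at 1 h, against 1.61% of all genes. SOX4 fell by 0.59 (SE 0.12, adjusted p = 0.000875), SOX9 by 0.62 (SE 0.12, adjusted p = 0.000783) and SOX5 by 0.54 (SE 0.15, adjusted p = 0.0364), while SOX2 was at −0.73 (SE 0.22, adjusted p = 0.0717). The 3 SOX2 libraries at that point were far apart, at 191.6, 344.3 and 453.6 normalized counts. Without replicate 1 none of the 4 were called in MAPKi, with an adjusted p of 0.124 for SOX4, 0.136 for SOX9 and 0.237 for SOX5. The SOX5 call was also lost without replicate 2 (0.433), without replicate 3 (0.0796) and under 7 other settings, whereas SOX2 was called without replicate 3 (−1.03, adjusted p = 0.0485), with no filter on low counts (−0.73, adjusted p = 0.00460) and with the T arm at 0 h as the initial level (−1.02, adjusted p = 0.00340).

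At 3 and 5 h with triptolide, SOX4 and SOX9 had lost most of their initial level, and they had lost more of it in MAPKi. SOX4 was left at 27.0% ± 1.9 and 16.8% ± 3.1 of the 0 h vehicle mean in DMSO and at 10.7% ± 1.8 and 5.6% ± 0.8 in MAPKi (SD, n = 3). In normalized counts its MAPKi libraries went from 6268, 6139 and 6913 at 0 h to 585.4, 658.7 and 817.4 at 3 h and 379.5, 297.6 and 398.9 at 5 h. SOX9 was left at 26.3% ± 3.1 and 12.6% ± 1.6 in DMSO and at 11.8% ± 3.2 and 3.3% ± 1.3 in MAPKi. Its MAPKi libraries went from 1569, 1561 and 1407 normalized counts to 131.5, 174.9 and 228.5 at 3 h and 39.3, 72.7 and 38.1 at 5 h. SOX5 was left at 76.9% ± 6.3 and 40.6% ± 7.2 in DMSO and at 76.9% ± 3.7 and 55.0% ± 11.1 in MAPKi. The median gene, for comparison, was left at 74.5% and 64.4% in DMSO and at 70.1% and 59.3% in MAPKi at these times.

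All 3 members that could be tested were called lower in both pretreatments. In DMSO 50% of all genes were called, and the log2 differences from vehicle at 0 h were −2.23 for SOX4 (SE 0.11, adjusted p = 2.75e-30), −2.46 for SOX9 (SE 0.10, adjusted p = 1.69e-35) and −0.84 for SOX5 (SE 0.12, adjusted p = 1.04e-08). In MAPKi 57.4% of all genes were called, and the differences were −3.70 for SOX4 (SE 0.10, adjusted p = 2.55e-47), −3.98 for SOX9 (SE 0.11, adjusted p = 3.24e-46) and −0.61 for SOX5 (SE 0.12, adjusted p = 1.59e-05). The median over all genes was −0.47 in DMSO and −0.59 in MAPKi, so SOX5 lay near the median gene in MAPKi and below it in DMSO. When the libraries were scaled by TMM, which sets the median gene near −0.01 in DMSO and 0.04 in MAPKi, the SOX5 difference was −0.37 in DMSO (adjusted p = 0.00669) and 0.02 in MAPKi (adjusted p = 0.935). Scaled by total counts it was −0.52 in DMSO, still called, and −0.25 in MAPKi (adjusted p = 0.0874). Of the called genes 2.61% were higher in DMSO and 2.23% in MAPKi with stable genes, 35.9% and 46.7% with TMM, and 14.1% and 12.7% with total counts. SOX2, as a description, was left at 14.5% ± 3.0 and 9.1% ± 6.6 in DMSO and at 5.4% ± 2.8 and 2.3% ± 0.4 in MAPKi. The DMSO values rest on few reads, 7, 8 and 7 at 3 h and 6, 7 and 1 at 5 h, and the MAPKi values on 21, 49 and 44 at 3 h and 16, 19 and 14 at 5 h.

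The extra loss in MAPKi was itself tested. It was called for 2 of the 3 testable members, against 3.17% of all genes, with members chosen when earlier results of these data were known. SOX4 lost a further 1.47 on the log2 scale (difference −1.47, SE 0.15, adjusted p = 4.51e-11) and SOX9 a further 1.52 (difference −1.52, SE 0.16, adjusted p = 2.77e-11), against a median of −0.11 over all genes. Both were called under all alternatives tried for this contrast. The vehicle level of SOX9 also fell from 0 to 3 h, from 206.1 to 96.85 CPM in MAPKi and from 626.2 to 424.8 CPM in DMSO. The part of this fall in the SOX9 difference was not tested. For SOX5 the difference was 0.22, with a 95% interval from −0.12 to 0.57 (adjusted p = 0.676). The SOX2 value, as a description, was −1.76 (SE 0.49), and the MAPKi vehicle level of SOX2 was likewise lower at 3 h than at 0 h. Of the 5 other SOX genes SOX10 (−0.54, SE 0.15, adjusted p = 0.0248) and SOX13 (−0.79, SE 0.22, adjusted p = 0.0275) also lost more in MAPKi, while the difference for SOX6, SOX8 and SOX12 was −0.22, −0.12 and −0.49 and did not pass. With TMM 39.4% of the genes called in this contrast had a smaller loss in MAPKi, against 13.1% with stable genes.

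Adding cycloheximide ahead of triptolide kept SOX4 and SOX9 mRNA from falling as far, and by description SOX2 mRNA too. At 1 h the effect was barely detectable. In DMSO 0 of the 4 members were called by edgeR or DESeq2 or had an unadjusted p under 0.05, and edgeR called 0.0401% of all genes. In MAPKi 1 of the 4 was called, against 0.368% of all genes: SOX9 was higher by 0.52 (SE 0.12, adjusted p = 0.0198), but not when replicate 1, 2 or 3 was left out (adjusted p = 0.321, 0.142 and 0.397) or with TMM (0.0841). SOX2 was higher by 0.61 in DMSO (SE 0.32) and 0.64 in MAPKi (SE 0.22, adjusted p = 0.302), and the MAPKi difference was called with no filter on low counts (adjusted p = 0.0414). The difference between pretreatments at 1 h was called by edgeR for 0 members and 0% of all genes, with 588 genes, SOX9 among them, at an unadjusted p under 0.05. DESeq2 called 0 genes, and edgeR without the filter on low counts called 13. For SOX2, which could be tested here, it was 0.03 with a 95% interval from −0.78 to 0.84.

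At 3 and 5 h the effect was large. In DMSO 28.9% of all genes were called, and all 3 testable members were higher with both inhibitors than with triptolide alone, SOX4 by 1.397 (SE 0.10, adjusted p = 2.26e-21), SOX9 by 1.64 (SE 0.09, adjusted p = 6.73e-28) and SOX5 by 0.39 (SE 0.10, adjusted p = 0.00166). In MAPKi 42% of all genes were called, and SOX4 was higher by 2.74 (SE 0.09, adjusted p = 6.55e-42), SOX9 by 3.23 (SE 0.10, adjusted p = 1.19e-42) and SOX5 by 0.41 (SE 0.10, adjusted p = 0.000508). SOX4 ranked 299 and SOX9 167 from the top of 14948 genes in MAPKi. In normalized counts, the 5 h libraries of MAPKi cells held 379.5, 297.6 and 398.9 for SOX4 with triptolide and 2775, 2596 and 3321 with both, and 39.3, 72.7 and 38.1 for SOX9 with triptolide and 812.3, 822.6 and 709.5 with both. The SOX5 effect was close to the median over all genes, 0.23 in DMSO and 0.34 in MAPKi. It was not called with TMM (0.17 and 0.05), where the genes higher with both inhibitors were 73.9% and 59.1% of those called against 98.4% and 98.7% with stable genes, nor without replicate 3 in DMSO (0.31, adjusted p = 0.0626) or without replicate 1 in MAPKi (0.28, adjusted p = 0.0841). Scaled by total counts those shares were 89.7% and 83.4%, and by a stable set widened to TCHX 83.9% and 84.6%. The SOX5 call was lost in both pretreatments under these settings too, at 0.24 and 0.19 with total counts (adjusted p = 0.0665 and 0.134) and at 0.19 and 0.19 with the wider set (adjusted p = 0.187 and 0.170).

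SOX2, by description, was at 14.4, 29.6 and 44.7 normalized counts with triptolide and 411.2, 532.5 and 510.0 with both inhibitors at 3 h in MAPKi, and at 11.4, 10.96 and 14.8 against 319.2, 364.2 and 418.4 at 5 h. In DMSO it was at 6.66, 4.37 and 5.79 against 43.6, 28.9 and 16.8 at 3 h, and at 4.43, 5.51 and 0.628 against 22.6, 24.2 and 16.2 at 5 h. The log2 differences were 2.46 (SE 0.33) in DMSO and 4.49 (SE 0.20) in MAPKi. With both inhibitors the share left was 77.0% ± 34.8 in DMSO and 88.7% ± 11.8 in MAPKi at 3 h and 54.3% ± 10.96 and 67.2% ± 9.1 at 5 h, and the ranges of 1 SD around these means overlapped. The same held for SOX4, with 65.3% ± 11.5 and 58.7% ± 5.1 at 3 h and 48.3% ± 4.3 and 45.0% ± 5.9 at 5 h, and for SOX9, with 62.9% ± 5.0 and 68.3% ± 7.2 at 3 h and 51.1% ± 5.5 and 51.7% ± 4.1 at 5 h (SD, n = 3).

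The cycloheximide effect under triptolide was larger in MAPKi for 2 of the 3 testable members, against 7.11% of all genes. Because the members were chosen with earlier results of these data known, they are not an independent set for this comparison. The log2 difference between pretreatments was 1.34 for SOX4 (SE 0.13, adjusted p = 8.33e-13) and 1.59 for SOX9 (SE 0.13, adjusted p = 1.67e-15), and both were called under all alternatives tried for this contrast. For SOX5 it was 0.03, with a 95% interval from −0.26 to 0.31 (adjusted p = 0.979). Of the 5 other SOX genes, all 5 rose with cycloheximide under triptolide in each pretreatment. In those comparisons 28.9% of all genes were called in DMSO and 42% in MAPKi, nearly all higher. Other scalings were not examined for these 5 genes. SOX10 had the larger effect in MAPKi (0.58, SE 0.12, adjusted p = 0.000579), whereas SOX6 (0.11), SOX8 (0.39), SOX12 (0.30) and SOX13 (0.47) did not pass. With TMM 76.5% of the genes called in this contrast had the larger effect in MAPKi, against 95.9% with stable genes. The decay, cycloheximide and interaction comparisons share libraries with triptolide, so their values are not independent of each other.

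**Figure D3:**
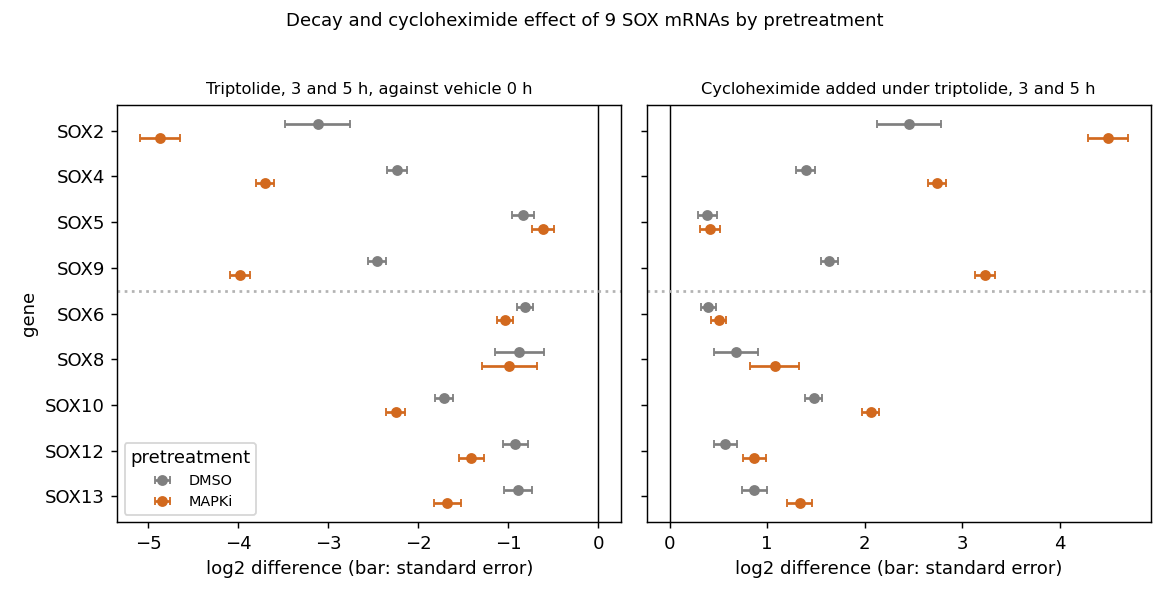
Log2 differences with standard errors for the 4 SOX genes and, under the dotted line, the 5 other SOX genes that passed the filter, in DMSO (grey) and MAPKi (orange). The left panel gives triptolide at 3 and 5 h against vehicle at 0 h and the right panel cycloheximide plus triptolide against triptolide at 3 and 5 h. SOX4 and SOX9 moved from −2.23 and −2.46 in DMSO to −3.70 and −3.98 in MAPKi on the left, and SOX5 lay near the same value in both pretreatments on the right. SOX2 is a description here.

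Over all genes 28.9% were called in DMSO and 42% in MAPKi, nearly all of them higher with both inhibitors (4247 and 6194 genes), and the counts of the lists are given beside these shares. Of the partner factors 5 of 6 tested rose with cycloheximide under triptolide in DMSO and 3 of 6 in MAPKi, where POU3F2 rose by 1.67, PAX3 by 1.42 and POU2F1 by 1.03. Of the target genes 2 of 10 rose in each pretreatment, in MAPKi EZH2 (0.83) and TEAD2 (0.49), and of the melanocytic markers 4 of 10 rose in DMSO and 5 of 10 in MAPKi. Of the markers of the undifferentiated state 4 of 10 rose in each. JUN, an immediate early gene, had the largest rise of that list (4.19 in DMSO and 5.73 in MAPKi). Of the noncoding neighbours CASC15 rose in DMSO (1.61, SE 0.56, adjusted p = 0.0222) and was at 0.42 in MAPKi (SE 0.21, adjusted p = 0.102).

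The study's own measure of translation-dependent decay, the TDD index, is the level with both inhibitors minus the level with triptolide, divided by the initial level, so that a value of 0 means no part of the decay needed translation. It was computed for each replicate number at 3 and 5 h and averaged. The SOX2 index averaged 0.528 ± 0.109 for DMSO and 0.745 ± 0.066 for MAPKi (SD over 3 replicate numbers). For SOX4 it was 0.349 ± 0.035 and 0.436 ± 0.016, and for SOX9 0.375 ± 0.0075 and 0.526 ± 0.037, and for SOX4 and SOX9 every MAPKi value was above every DMSO value. The SOX2 index uses the libraries on which SOX2 was chosen and is a description. For SOX5 it was 0.153 ± 0.053 and 0.208 ± 0.099, and the values overlapped, although at 3 h alone (0.067 ± 0.058 and 0.253 ± 0.037) they did not. With TMM the SOX5 index was 0.079 in DMSO and 0.028 in MAPKi, and the order of the pretreatments turned. At 3 h alone the SOX2 values were 0.599 ± 0.244 and 0.835 ± 0.035, with the wide spread in DMSO. That spread lay in the level with both inhibitors, at 77.0% ± 34.8 of the initial level, against 14.5% ± 3.0 with triptolide.

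**Figure D4:**
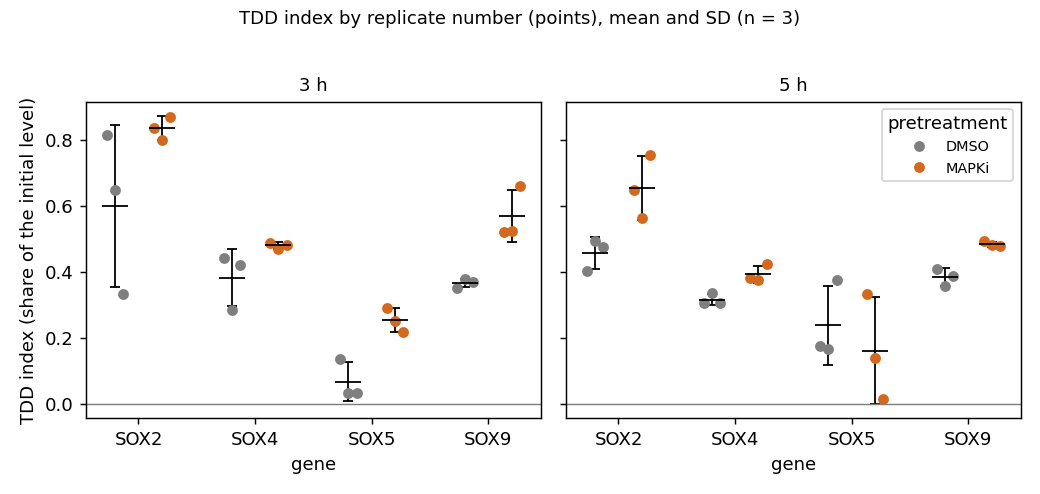
TDD index of the 4 SOX mRNAs at 3 h (left) and 5 h (right), as a share of the initial level, by replicate number (points) with the mean and SD (n = 3) in DMSO (grey) and MAPKi (orange). SOX4 and SOX9 lay higher in MAPKi at both times, the SOX2 values in DMSO spread widely at 3 h, and SOX5 overlapped at 5 h but not at 3 h.

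Ordered over all 32 groups by mean normalized counts, SOX2 and SOX4 were highest in MAPKi cells after 5 h of cycloheximide, at 840.5 ± 151.4 and 9429 ± 1285, and lowest in DMSO cells after 5 h of triptolide, at 3.52 ± 2.56 and 89.5 ± 16.4 (SD, n = 3). For SOX2 25 of the 31 neighbours in this order overlapped in their libraries. The breaks lay below MAPKi T at 1 h (329.8 ± 131.6), below MAPKi vehicle at 3 h (164.9 ± 25.8), below DMSO CHX at 3 h (69.8 ± 5.99) and among the lowest groups. For SOX4 25 of the 31 neighbours overlapped too, with breaks below MAPKi TCHX at 3 h (3778 ± 328.7) and at 5 h (2897 ± 377.5). All DMSO groups lay under these, and MAPKi cells after 3 and 5 h of triptolide were among them (687.1 ± 118.6 and 358.7 ± 53.8). SOX9 ran from 7244 ± 363.4 in DMSO cells after 5 h of cycloheximide to 50.03 ± 19.6 in MAPKi cells after 5 h of triptolide, and 23 of the 31 neighbours overlapped. SOX5 ran from 602.5 ± 58.8 to 198.4 ± 40.2, both in MAPKi, after 5 h of cycloheximide and of triptolide, and each of its 31 neighbours overlapped. Across the 32 group means of log2(normalized count + 1), Pearson's r was 0.98 between SOX2 and SOX4 and 0.77 between SOX5 and SOX9, and between −0.07 and 0.05 for the other pairs. The points share libraries, size factors and pretreatment, so r is given as a description. The genes most like SOX2 were SOX4, SNX18 (0.98) and TRIM63 (0.97), those most like SOX4 were TRIM63 (0.99), ZFYVE1 (0.99) and SNX18 (0.98), those most like SOX9 were PHLDA1 (0.99), NDUFAF4 (0.98) and ARF6 (0.98), and those most like SOX5 were MID1IP1, HEY1 and ZNF365 (0.86 each).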

How the data were processed

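Cytoplasmic RNA of A375 cells was made into 3′ end libraries without molecular identifiers. Per the study's methods and processing notes, the authors trimmed reads with fastp 0.20.1, aligned them to GRCh38.p13 with HISAT2 2.2.1 and counted them on NCBI's annotation with htseq-count (HTSeq 0.13.5). The deposited file holds these raw read counts for 44659 genes in 96 libraries, and groups follow the labels. The 4 genes, the gene lists and the tests were chosen with earlier results of these data known.

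Counts were read with R 4.3.3. Genes were filtered with filterByExpr and fitted in edgeR 4.0.16 (quasi-likelihood) with 1 mean for each of the 32 groups. Contrasts without triptolide used TMM library sizes. Contrasts with triptolide used DESeq2 1.42.0 size factors (median of ratios) over 36 stable genes, adapted from the study's methods as above 0.2 CPM in vehicle at 0 h and at least 1.1 times higher at both 3 and 5 h of triptolide (the methods name 1 time or the other, which gave 512 genes and was an alternative), with the initial CPM above 10% of the later ones, in every replicate of both pretreatments. The filter selects genes that rise relative to the rest, so the level of all genes in triptolide arms depends on it. ERCC spike-ins were not used here. P-values were two-sided, adjusted by the Benjamini-Hochberg method over all 14948 genes and called under 0.05, and 95% intervals are the estimate ± 1.96 SE. CPM are counts scaled by TMM library size. Alternatives were other size factors, DESeq2's Wald test, no filter, the replicate block, fits on the compared groups alone, other initial levels and times, and leaving out each replicate number in turn. A wider stable set of 62 genes was added after seeing the data. The edgeR fit was checked on simulated counts scaled by TMM, which does not cover the scaling by stable genes. Named genes are the 4 members, up to 5 called genes of each list with the largest change in a comparison, and the 3 genes most correlated with each member. Gene positions come from GENCODE release 44, and 98.5% of the expressed protein-coding genes had a MANE Select transcript there. Libraries of a group correlated at 0.959 to 0.990 and differed by at least 3.14 times the Poisson sampling noise (chi-square per degree of freedom), so none were taken for duplicates.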

Additional observations from a re-analysis of the deposited data

Results flagged for a closer look

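The listed results are those in which the effect differed between DMSO and MAPKi cells by a test of the difference itself (edgeR's quasi-likelihood test, adjusted over all genes), SOX2 at 3 and 5 h left out because it was chosen on that contrast. The loss under triptolide at 3 and 5 h was larger in MAPKi for SOX4 (log2 difference between pretreatments −1.47) and SOX9 (−1.52), and for the family members SOX10 (−0.54) and SOX13 (−0.79). The gain from cycloheximide under triptolide was larger in MAPKi for SOX4 (1.34), SOX9 (1.59) and SOX10 (0.58). The effect of cycloheximide alone differed, with the higher value in MAPKi, for SOX9 (0.64), which rose in both pretreatments, for SOX5 (0.39) and SOX8 (1.04), which were called higher in MAPKi and not called in DMSO, and for SOX12 (0.48), which fell in DMSO and was not called in MAPKi. The SOX5 difference was not called without replicate 1, 2 or 3. The vehicle levels of SOX9 in MAPKi dipped at 3 h to 45.5% of the 0 h mean, and their part in its cycloheximide and triptolide differences was not tested.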

How the results depend on the processing

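Of the 15 comparisons, SOX4 and SOX9 kept their direction and call under all alternatives in the MAPKi effect, the cycloheximide effect of each pretreatment, the late triptolide and TCHX effects and both late interactions. Counts of called members moved elsewhere. For triptolide at 1 h in DMSO, 1 member was called with no filter on low counts, the replicate block, DESeq2 or stable genes at either time and 2 with the wider stable set, against 0. For TCHX at 1 h in MAPKi, 0 were called with TMM, stable genes at either time, the wider stable set or the compared groups alone and 2 with no filter, against 1. Leaving out a replicate gave 1 to 1 called members for the cycloheximide interaction (2 in full), 0 to 3 for triptolide at 1 h in MAPKi (3 in full) and 0 to 0 for TCHX at 1 h in MAPKi. Small differences changed sign. The SOX5 late difference in MAPKi was 0.017 with TMM. SOX5 TCHX at 1 h in DMSO was −0.020 with TMM, −0.0022 with total counts, −0.0027 with stable genes at either time, −0.0080 with the wider set and −0.036 to 0.043 without a replicate. The SOX2 interaction at 1 h was −0.037, −0.0093, −0.039, −0.034 and −0.41 to 0.51 under the same 5 settings. The late SOX5 TCHX interaction was −0.12, −0.046, −0.0046, −0.0042 and −0.14 to 0.19. The cause was not tested in any of these. Over all genes, leaving out a replicate gave 404 to 526 calls for the cycloheximide interaction (1034 in full), 113 to 330 for the decay interaction (474), 400 to 674 for the late TCHX interaction (1063), 41 to 56 and 45 to 112 for triptolide at 1 h (132 and 241), 0 to 3 and 16 to 28 for TCHX at 1 h (6 and 55), 2671 to 2700 and 2487 to 3147 for cycloheximide (3861 and 3858) and 2831 to 3706 for late TCHX in DMSO (4317), with fewer libraries in each fit. Over all alternatives these counts ran from 6860 to 10639 for MAPKi, 404 to 1638 for the cycloheximide interaction, 41 to 426 and 45 to 412 for triptolide at 1 h, 4602 to 7807 and 5311 to 8706 for late triptolide, 113 to 639 for the decay interaction, 0 to 24, 7 to 119 and 0 to 13 for TCHX at 1 h and its interaction, and 400 to 1248 for the late TCHX interaction. Same-numbered libraries deviated together with a median r of 0.023 (−0.38 to 0.40, 1488 pairs), and because not every r was over 0.1 the numbers were not taken as a pairing in the tests. The TDD index does match libraries by number. In the deposited counts each number also has its own prefix, whose meaning is not given. Still, 63 of 96 libraries were closest to their own number among the 3, more than an even split would give, a hint from the data that equal numbers share something. The replicate block changed no other member's call, and moved the late TCHX interaction to 1170 genes. The 1 to 8 SOX2 reads per library in DMSO under late triptolide limit how well its loss there can be measured.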
